A study of Mus musculus with 2 samples.

Results

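The subunits of the proteasome were compared between haematopoietic stem cells of Wip1 knockout mice and of wild-type mice. A fixed list of 36 genes was used: 14 subunits of the 20S core, 6 ATPases and 11 non-ATPase subunits of the 19S cap, and 5 activators and inhibitors that bind the core. Members were found as the probe sets whose only gene symbol in the platform annotation is a listed gene. This gave 81 probe sets for 35 of the 36 genes, out of 45037 probe sets and 18193 named genes on the array. Psme2 had no probe set of its own, because its probe set is also assigned to Psme2b, and it was not analysed here. The last 5 genes of the list belong to neither the core nor the cap, and they are described apart from both.

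Total RNA came from haematopoietic stem cells, the bone marrow cells from which all blood lineages arise, and was hybridised to Affymetrix arrays. The groups were Wip1 knockout mice of 3 months, with 1 array, and wild-type mice of 3 months, with 1 array. Wip1, encoded by Ppm1d, is a phosphatase known to restrain p53 and DNA damage kinases. Not given in the sources used here are the knockout allele, the sorting of the cells, and the number and sex of the animals behind each array. Without replicates no test across arrays can be made, so no p-value is given and genotype cannot be told apart from any other difference between these 2 samples.

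The proteasome degrades proteins that carry chains of ubiquitin. Its 20S core is a barrel of alpha rings, which gate the entrance, around beta rings, which hold the cutting sites inside. The 19S cap recognises the ubiquitin chain, removes it, and threads the unfolded protein into the core by means of a ring of ATPases. Haematopoietic stem cells are known for a low rate of protein synthesis. When proteasome capacity is short, the transcription factor Nrf1, encoded by Nfe2l1, is known to raise transcription of subunit genes together through antioxidant response elements in their promoters.

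Since the subunit genes are known to share that element, the RefSeq promoters (assembly GRCm38.p6, 250 bases before to 50 after the start) of the members were searched for its core, TGACNNNGC, on both strands. It was the only motif searched. Promoters were found for 30 members and held the motif in 5 of them (16.7%): Psmb5, Psmb6, Psmc6, Psmd12 and Psme4. The share was 14.0% over 27025 genes with a promoter and 16.8% over the 9291 of these that were detected on the arrays. The members' share was therefore close to that of other genes. No promoter entry was matched for Psmb1, Psmb2, Psmb7, Psmc3, Psmd3 or Psmd7. The sequences below are those of the genes with the motif that were furthest apart in their difference between the genotypes, namely 2 catalytic core subunits and the activator Psme4. The motif, on either strand, is in capitals. In Psmb5, at chr14:54617946-54618245 on the minus strand, it began 47 bases before the start. In Psmb6, at chr11:70525107-70525406 on the plus strand, it began 9 bases before the start. In Psme4, at chr11:30771525-30771824 on the plus strand, it was read on the opposite strand and began 7 bases before the start.
Psmb5: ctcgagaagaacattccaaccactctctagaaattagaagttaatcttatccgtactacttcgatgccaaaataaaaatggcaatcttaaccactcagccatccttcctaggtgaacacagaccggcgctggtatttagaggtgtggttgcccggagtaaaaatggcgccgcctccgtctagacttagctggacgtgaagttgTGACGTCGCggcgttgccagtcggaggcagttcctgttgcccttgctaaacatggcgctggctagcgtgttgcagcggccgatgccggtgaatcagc
Psmb6: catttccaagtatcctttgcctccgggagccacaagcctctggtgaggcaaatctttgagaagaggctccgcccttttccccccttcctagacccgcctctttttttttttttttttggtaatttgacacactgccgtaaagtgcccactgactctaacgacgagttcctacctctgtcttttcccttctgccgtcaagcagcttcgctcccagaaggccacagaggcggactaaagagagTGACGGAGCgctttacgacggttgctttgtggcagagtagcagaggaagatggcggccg
Psme4: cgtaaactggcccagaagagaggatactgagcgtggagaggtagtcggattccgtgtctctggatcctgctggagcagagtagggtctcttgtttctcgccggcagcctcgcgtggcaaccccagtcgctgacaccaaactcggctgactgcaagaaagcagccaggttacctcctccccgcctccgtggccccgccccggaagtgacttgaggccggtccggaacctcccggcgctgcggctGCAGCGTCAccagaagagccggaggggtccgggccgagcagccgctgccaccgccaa

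Values are the deposited intensities, a linear brightness of each probe set. Differences are log2 knockout minus wild type after the arrays were centred on the median difference of named probe sets, which removed a shift of -0.01. A gene was counted as detected when its probe set lay above the median of all probe sets (25.9 on the knockout array and 25.2 on the wild-type array) on at least 1 array. Each gene was represented by its brightest probe set. The levels of different genes are not compared, since brightness depends on the probe.

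Proteasome genes were lower in the knockout in nearly every case, and each by a small amount. All 35 members with a probe set were detected on both arrays, and 33 were lower in the knockout and 2 higher. Among 11442 detected genes, 50.6% were lower. Members were chosen with earlier results of these data known, so the count is a description and not a test. The members' median log2 difference was -0.17, a ratio of 1.13-fold, against a median of -0.0031 over all detected genes. The 2 higher members, Psmd11 and Psme4, differed by 0.03 each.

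No member reached 1.5-fold in either direction, a size that 1.57% of detected genes reached downward and 2.28% upward. At a smaller size, 0.32 on the log2 scale, 4 members were lower (Psmd7, Psme3, Psmb7 and Psmc4) and 0 were higher. Of all detected genes, 7.95% were lower by that size or more and 9.3% higher. The file holds 1 kind of error, the spread among probe sets that read the same gene, with an SD of 0.22 on the log2 scale over 5084 genes and 0.19 over 19 members. Both SDs mix bright and dim probe sets and include those under the floor on 1 array. They are therefore not the error of the brightest probe sets alone. The difference was smaller than 0.19 in 20 of 35 members and at least as large in 15. At or below -0.2 lay 42.9% of members and 18.7% of all detected genes. At or below 0.2 lay 100% of members and 81.2% of all detected genes, each gene by its brightest probe set. Differences above 0.2, a size close to both SDs, were therefore found only outside the members. The file holds no measure of variation between animals or arrays.

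Bright genes leaned the same way. Most members are bright, with intensities of their brightest probe sets from 119 to 2991 in the knockout and from 123 to 3324 in the wild type. Of 6439 other genes within the members' range of mean intensity, 53.2% were lower, with a median of -0.02. Of 2250 other genes from the members' lower quartile of intensity upward, 57.3% were lower, with a median of -0.03. After a loess correction of the difference for intensity, 32 members were lower and the median was -0.14. After quantile normalization 31 were lower and the median was -0.12.

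**Figure D1:**
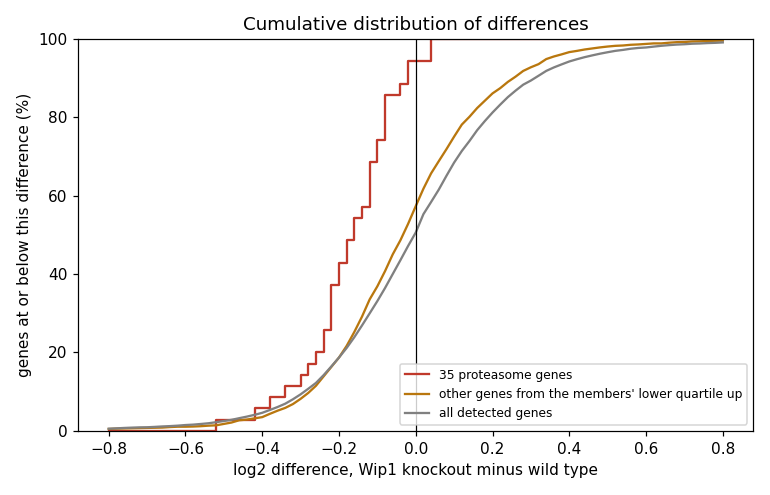
Percentage of genes (vertical axis) whose log2 difference, knockout minus wild type (horizontal axis), lies at or below each value, for 35 proteasome genes, for other genes at or above the members' lower quartile of intensity, and for all detected genes. The proteasome curve lies left of both others through its middle, and reaches 94.3% by a difference of 0, against 57.3% and 50.6%.

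The alpha ring of the core, whose subunits form the gate, was lower in 7 of 7 genes, with a median of -0.14. Psma7 had an intensity of 1233 in the knockout against 1461 in the wild type, a log2 difference of -0.24. Psma4 had 2324 in the knockout against 2713 in the wild type, a difference of -0.21. Psma6 had 2991 in the knockout against 3324 in the wild type, a difference of -0.14. These were the ring's largest differences, and the second probe sets of Psma7 and Psma6 were also lower (-0.28 and -0.21). Psma2 (-0.14), Psma1 (-0.10), Psma3 (-0.09) and Psma5 (-0.04) were lower by less.

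The beta ring, which carries the proteolytic sites, was also lower in 7 of 7 genes. Its 3 catalytic subunits differed by more than its 4 structural ones in their medians, -0.32 against -0.18, a contrast of so few genes that it stands as a description. Psmb7, the subunit with trypsin-like activity, had an intensity of 376 in the knockout against 497 in the wild type, 1.31-fold lower. Psmb5, the subunit with chymotrypsin-like activity and the main target of the drug bortezomib, had 819 in the knockout against 1028 in the wild type, a difference of -0.32. Psmb6, the subunit with caspase-like activity, had 996 in the knockout against 1177 in the wild type, a difference of -0.23. Each of these genes was read by a single probe set.

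Among the structural beta subunits, Psmb4 stood lowest. Its brightest probe set had 1794 in the knockout against 2168 in the wild type (-0.26), and its other probe set had 1166 in the knockout against 1671 in the wild type (-0.51). Psmb2 (-0.19), Psmb3 (-0.17, with -0.27 in a second probe set) and Psmb1 (-0.10) were also lower. Over the core as a whole, 14 of 14 genes were lower, with a median of -0.18 and a range from -0.39 to -0.04.

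**Figure D2:**
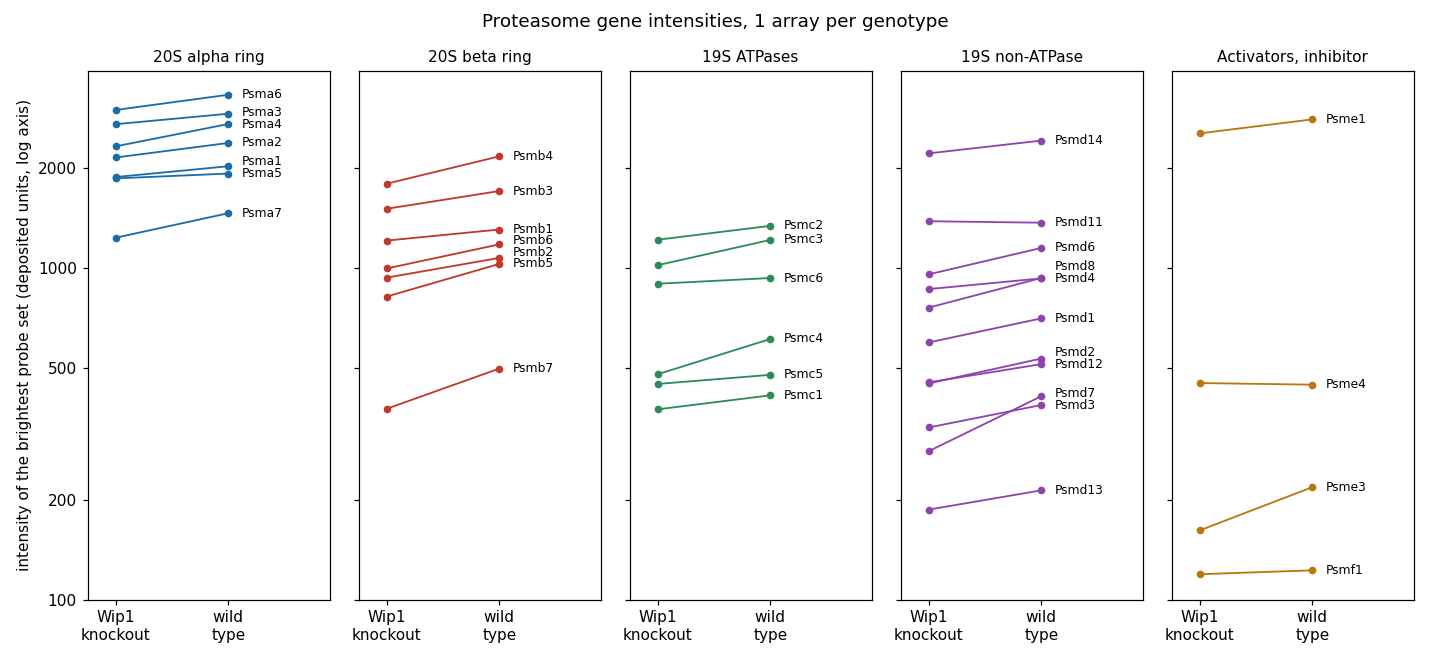
Deposited intensity (log axis) of the brightest probe set of each proteasome gene on the Wip1 knockout array (left point) and the wild-type array (right point), by role, with 1 array per genotype and no error bars. Lines climb to the right for 33 of 35 genes, and those of Psmd11 and Psme4 are nearly flat.

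The ATPases of the cap, which unfold the substrate, were lower in 6 of 6 genes, with a median of -0.13 and a range from -0.34 to -0.05. Psmc4 had an intensity of 478 in the knockout against 610 in the wild type, 1.27-fold lower, but only -0.14 in its other probe set. Psmc3 had 1019 in the knockout against 1214 in the wild type, a difference of -0.24. Psmc1 had 375 in the knockout against 413 in the wild type, a difference of -0.13. Each of these proteins belongs to the ring that threads the substrate into the core. Psmc2 (-0.13), Psmc5 (-0.08) and Psmc6 (-0.05) were closer to 0.

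The non-ATPase subunits of the cap were lower in 10 of 11 genes, with a median of -0.21. Psmd7, a lid subunit that pairs with the deubiquitinase Psmd14, had the largest difference of all members. Its brightest probe set had 280 in the knockout against 410 in the wild type, 1.45-fold lower, while a second, dimmer probe set went the other way, with 82.3 in the knockout against 70.4 in the wild type (0.24). The median over the probe sets of Psmd7 was -0.15. Psmd8 had 759 in the knockout against 932 in the wild type (-0.29), and Psmd6 had 956 in the knockout against 1148 in the wild type (-0.25, with -0.30 in its other probe set). Both are subunits of the lid, the part of the cap that holds the deubiquitinase.

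The other lid genes lower in the knockout were Psmd3 (-0.21), Psmd13 (-0.18), Psmd12 (-0.17) and Psmd14 (-0.12). The base of the cap holds 3 further non-ATPase subunits. Psmd2 and Psmd1, its large scaffold proteins, differed by -0.24 and -0.23. Psmd4, a receptor for ubiquitin chains, differed by -0.10 in its brightest probe set and by -0.35 and -0.18 in the others.

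Psmd11 was the exception in the cap. In human embryonic stem cells this lid subunit is known to raise proteasome assembly and activity. Its brightest probe set had an intensity of 1382 in the knockout against 1368 in the wild type, a difference of 0.03. Its probe sets did not have a common direction: of 6 measured on both arrays, 3 were higher (0.03, 0.11 and 0.30) and 3 lower (-0.15, -0.24 and -0.29). The gene therefore has no settled direction in these data.

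Among the regulators of the core, Psme3, the nuclear activator of the PA28 family, had an intensity of 162 in the knockout against 218 in the wild type, 1.34-fold lower. Its second probe set was lower as well (-0.37). Psme1, an interferon-inducible activator of the same family, had 2542 in the knockout against 2802 in the wild type (-0.13). Psmf1, a protein that inhibits the core in vitro, had 119 in the knockout against 123 in the wild type (-0.03). Psme4, the activator PA200, had 449 in the knockout against 444 in the wild type (0.03), and its other measured probe sets differed by -0.06 and 0.38. Of these 4 regulators 3 were lower, with a median of -0.08.

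**Figure D3:**
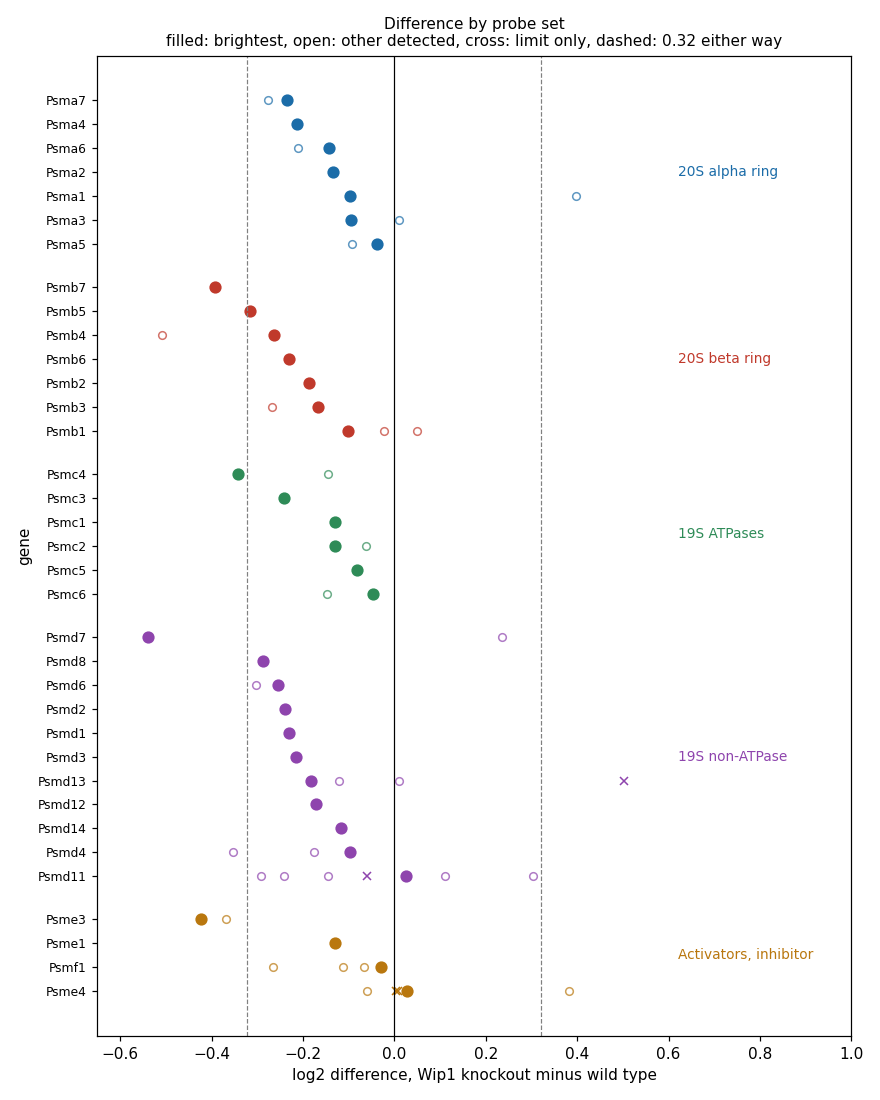
Log2 difference, knockout minus wild type (horizontal axis), for each probe set of 35 proteasome genes (rows) by role. Filled points are the brightest probe set, open points other probe sets measured on both arrays, crosses probe sets below the floor on 1 array, which give a limit only, and dashed lines mark 0.32 either way. Of the filled points 33 lie left of 0.

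The direction was also read over every probe set. Of the 81 probe sets, 13 were under the floor on both arrays and 4 on 1 array, which left 64 measured on both. Of these 54 were lower, 8 higher and 2 had identical values on both arrays. Of 19 members with several measured probe sets, 12 were lower in each of them. The 7 others were Psma1, Psma3, Psmb1, Psmd7, Psmd11, Psmd13 and Psme4. The same share over all genes with several measured probe sets was not computed, so the 12 have no background to be read against. By brightness, of 51 probe sets with a mean intensity of at least 100, 47 were lower and 4 higher, against 7 lower and 4 higher of 13 dimmer ones. Over all probe sets with 1 gene that were measured on both arrays, the share of lower ones was 53.7% at 100 and above and 45.8% below it.

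Of 37 detected genes that work beside the proteasome 32 were lower, with a median of -0.13. Of the 5 higher, Sem1 and Nsfl1c were so only through the centring. Lower shares were 50.6% over all detected genes and 53.2% over 6439 other genes within the members' range of mean intensity. The same shares are the background for the counts of each list below. The alternative subunits of the immunoproteasome replace the catalytic subunits in immune cells and after interferon, and are also part of antigen presentation. Psmb10, which replaces Psmb7, had an intensity of 826 in the knockout against 1019 in the wild type (-0.29). Psmb8, which replaces Psmb5, had 2235 in the knockout against 2509 in the wild type (-0.16). Psmb9, which replaces Psmb6, had 1172 in the knockout against 1317 in the wild type (-0.16). Standard and alternative catalytic subunits were thus lower in 3 of 3 genes each.

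Psma8, an alpha subunit known from the testis, was the only gene of the system past 1.5-fold. It had an intensity of 67.1 in the knockout against 150 in the wild type, 2.23-fold lower by its only probe set. Of all detected genes, 0.21% were lower by a factor of 2 or more and 0.454% higher. Against a floor raised to the 75th percentile, its knockout value is under the floor and -0.38 is a limit only. Psmb11, known from the thymus, was under the floor on both arrays.

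All 9 assembly chaperones with a probe set were lower, with a median of -0.11. Psmg2, which with Psmg1 builds the alpha ring, had 362 in the knockout against 509 in the wild type (-0.48, with -0.27 in a second probe set). Psmg1 had 585 in the knockout against 754 in the wild type (-0.36). The maturation factor Pomp (-0.11) and Akirin2, known from human cells to bring proteasomes into the nucleus (-0.11), differed by less, as did Psmg3 (-0.23), Psmg4 (-0.20), Psmd9 (-0.11), Psmd5 (-0.04) and Psmd10 (-0.03).

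Of 6 other genes whose products bind the cap, 4 were lower, with a median of -0.12. Of the 2 higher, Sem1 had 3036 in the knockout against 3053 in the wild type and was counted as higher only through the centring. Its other probe set differed by -0.29. Uchl5, a deubiquitinase of the cap, had 916 in the knockout against 1160 in the wild type (-0.33), and the ubiquitin ligase gene Ube3a differed by -0.16. Of 9 shuttle factors and p97 cofactors 7 were lower, with a median of -0.15. Of the 2 higher, Nsfl1c had 873 in the knockout against 879 in the wild type and was so counted only through the centring. The shuttle genes Rad23b (-0.30) and Ubqln1 (-0.27), whose products carry ubiquitinated proteins to the cap, were lowest. The p97 cofactor gene Ufd1 was higher by its brightest probe set (0.14) but lower by its other one (-0.14). Of the ubiquitin and E1 list only Uba6, an enzyme that activates ubiquitin, was analysed here (-0.30 by its brightest probe set, but a median of -0.10 over its probe sets).

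Genes known to take part in the control of subunit genes by Nrf1 and Nrf2, not all of them transcription factors, differed by unequal amounts. Nfe2l1, which encodes Nrf1, had an intensity of 259 in the knockout against 269 in the wild type (-0.05). Nfe2l2, which encodes its relative Nrf2, differed by -0.05 in its brightest probe set and by -0.30 in its other one. In the same list of 8 genes, 7 were lower, with a median of -0.05 that became -0.01 after quantile normalization. Of 6439 other genes within the members' range of mean intensity, 53.2% were lower, with a median of -0.02. Bach1, a repressor at the same elements (-0.36), and the small Maf partner gene Maff (-0.33) were lowest in the list. Among members, the 5 genes with the motif in their promoter had a median difference of -0.17, against -0.14 in 24 members whose promoter lacked it. Their ranges overlapped, from -0.32 to 0.03 with the motif and from -0.42 to 0.03 without it. Members with no promoter entry, Psmd7 (-0.54) and Psmb7 (-0.39) included, are in neither group.

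**Figure D4:**
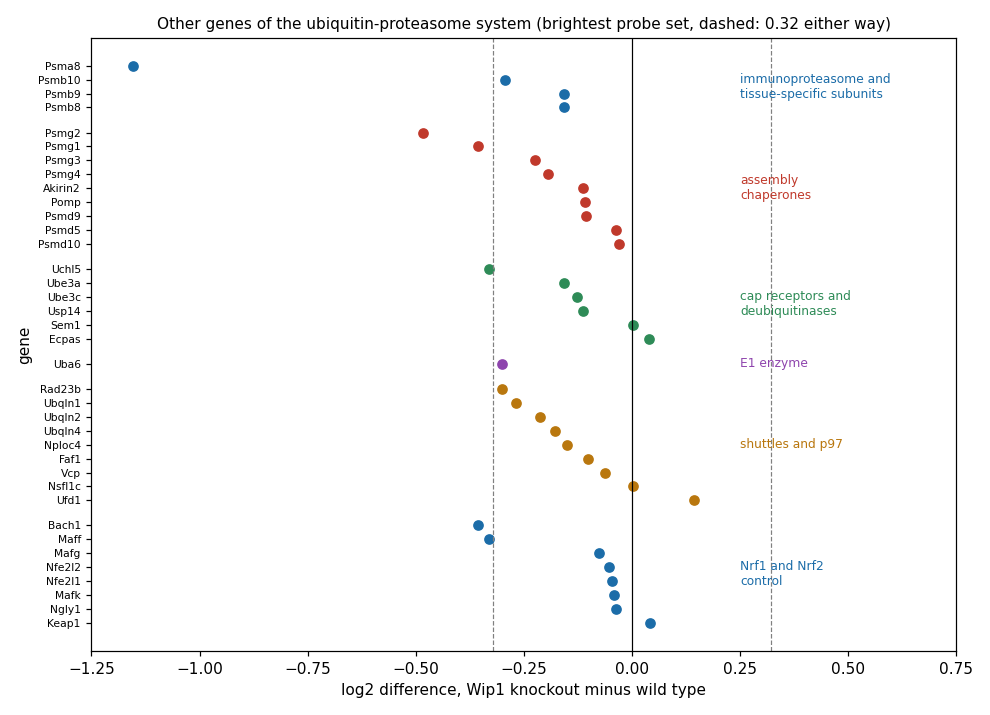
Log2 difference, knockout minus wild type (horizontal axis), of the brightest probe set of 37 other genes of the ubiquitin-proteasome system (rows), by list. Dashed lines mark 0.32 either way, and Psma8 lies furthest left at -1.15.

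Facts of the whole arrays bear on these values. The 2 probe sets of the targeted gene Ppm1d had intensities of 160 and 59.0 on the knockout array, against 167 and 55.6 on the wild-type array. Their place relative to the deletion, not given in the sources used here, is needed before they can check the genotype label. Sex-linked RNAs also differed, with Xist at 3778 in the knockout against 6228 in the wild type and the Y-linked Eif2s3y at 149 in the knockout against 31.8 in the wild type. Of 10 stem cell markers analysed here 10 were detected, 5 higher and 5 lower, with a median difference of -0.04 and summed intensities of 6414 in the knockout and 5596 in the wild type. Of the 5 higher, Fgd5 had an intensity of 177 on both arrays and was counted as higher only through the centring. Cd34 (0.43) and Hlf (0.70) were among the higher ones, and Slamf1 (-0.66) and Tek (-0.60) among the lower. Lymphoid markers (9 of 10 detected) were higher in 7 and lower in 2, with sums of 1109 in the knockout and 860 in the wild type. Of the 7 higher, Pax5 had an intensity of 37.2 on both arrays and was counted as higher only through the centring. Ebf1 and Rag1 lay under the floor in the wild type, so their differences are limits only. Myeloid markers (8 of 8 detected) were higher in 2 and lower in 6, with sums of 10345 in the knockout and 11962 in the wild type, to which Mpo gave 3665 and 5498. Csf1r, with 770 in the knockout against 294 in the wild type, and Itgam, with 61.9 in the knockout against 40.6 in the wild type, went the other way from that sum. Megakaryocyte markers (5 of 6 detected) were lower in 5, with sums of 591 in the knockout and 847 in the wild type. Erythroid markers (4 of 6 detected) were lower in 3, with sums of 214 in the knockout and 291 in the wild type. A sum over probe sets is led by the brightest of them. Hba-a1, Alas2, Cd3d and Ppbp were under the floor on both arrays. The part of these markers and of sex in the proteasome values was not tested. Fewer cells of a type and less RNA per cell cannot be told apart in these samples.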

How the data were processed

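The authors deposited a linear intensity for every probe set of each array. MAS5, with no version, is the only program in the submitters' processing notes. The scaling between arrays was not given in the sources used here. Values were identical between the arrays for 5.63% of probe sets. No detection call was used. Of 45037 probe sets, 34945 had 1 gene in the platform annotation, 932 had several and 9160 were not listed; the last 2 kinds were left out. Intensities were converted to log2, values under each array's median were set to it, and differences were centred as described, in Python 3.11.15 with pandas 2.3.3. Loess came from statsmodels 0.14.6. The number of arrays limits the precision. The procedure was tested on simulated data, with planted differences larger than that of any member. The simulation therefore does not cover differences of the size reported for the members. Members and lists were chosen with earlier results of these data known. All members were named, and of each other list the members past 1.5-fold and the 2 with the largest difference; other genes were named after their values were seen. Alternatives covered centring, normalization, floor, offset, probe set choice and fold size.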

Additional observations from a re-analysis of the deposited data

How the results depend on the processing

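The median difference of the members stayed below 0 under all 10 alternatives, from -0.21 to -0.12, and so did those of the core (-0.21 to -0.12), the ATPases (-0.14 to -0.07), the non-ATPase subunits (-0.23 to -0.17) and the regulators (-0.11 to -0.05) under 9 alternatives each. Over all 100 medians recomputed, the other lists included, values ran from -0.31 to -0.01. Between 26 and 33 members were lower; the 26 come from 29 members left when _s_at, _x_at and _a_at probe sets were dropped. Quantile normalization left 4 members higher, and leaving out the activators and inhibitor, an alternative chosen after seeing the data, left 1 higher of 31. With 0.32 on the log2 scale as the size in place of 1.5-fold, 4 members were lower. Of 35 members, 27 kept their sign under each alternative that gave them a value, which was 8 for Psmb5, Psmd4, Psmd12 and Psmd14 and 9 for the others of these 27; Psma1, Psma3, Psma5, Psmb1, Psmc6, Psmd11, Psmd13 and Psme4 did not. For Psma3 and Psmd13 the only value above 0 was 0.01. It came from probe sets identical on both arrays, through the centring alone. The share of all genes that kept their sign was not computed. Psma1 was 0.15 and Psmd7 -0.15 as the median of their probe sets. Psma8 was limited to -0.38 with a floor at the 75th percentile and was -0.91 with the floor added as an offset. Loess on intensity and quantile normalization brought the members closer to 0 without changing the list's direction. No paired analysis was possible because each genotype has 1 array. Signal over background limits the dim probe sets.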

Other observations

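Of the 81 proteasome probe sets, 5 held exactly the same intensity on both arrays, close to the 5.63% seen over the whole table. Of these 2 were detected, in Psma3 (56.4) and Psmd13 (43.9), both in dimmer probe sets of genes whose brightest probe set was lower in the knockout.

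Dimmer probe sets of several subunits went against the brightest one. The second probe set of Psma1 had an intensity of 45.9 in the knockout against 35.1 in the wild type (0.40), while its brightest differed by -0.10. A dim probe set of Psmd13 had 35.5 in the knockout and lay under the floor in the wild type, higher by at least 0.50, while its brightest differed by -0.18. The parts of the transcripts that these probe sets measure are not known here.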
